A study of Mus musculus with 10 samples.

Results

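The mitochondrial respiratory chain genes were compared between the whole brains of 5 Aldara-treated and 5 control mice. The mice were female and of the C57BL/6 strain and aged 6 to 8 weeks, with no engineered allele named in the labels. Each mouse received 80 mg of cream on shaved dorsal skin every 24 h for 5 applications, and the brain was removed 24 h after the final one. The cream was Aldara, which holds 5% imiquimod, a ligand of RNA-sensing Toll-like receptors, or an aqueous control cream. The control cream lacks isostearic acid, a part of the Aldara base that may itself be active, so imiquimod and the base of the cream cannot be told apart. The animals were perfused, and RNA of the whole brain was hybridised to 1 array per mouse. Expression values are log2 of normalised probe intensity, and a difference of 1 is a 2-fold change.

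Genes were taken by name: complex I subunits (Nduf a, b, c, s and v), complex II (Sdha to Sdhd), complex III (Uqcr), complex IV (Cox4 to Cox8) and complex V (Atp5). Of 93 symbols that matched, 89 had a probeset of their own and 4 (Cox7c, Ndufb4, Ndufb4b and Ndufs5-ps) were named only on probesets shared with another symbol. The 89 are among 19938 genes measured on the arrays, and 17 of them had several probesets, of which the brightest was used. They comprise 34 genes of complex I, 4 of complex II, 8 of complex III, 19 of complex IV and 17 of complex V. The remaining 7 are the assembly factors Ndufaf1 to Ndufaf7, which the name pattern takes in and which encode no subunit. Ndufa4 and Ndufa4l2 carry complex I names and were counted with complex IV, where the Ndufa4 protein is now placed. The mitochondrially encoded subunits were not analysed here.

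The respiratory chain sits in the inner mitochondrial membrane. Complex I takes electrons from NADH and complex II from succinate, complex III passes them to cytochrome c and complex IV to oxygen, and complex V uses the resulting proton gradient to make ATP. Neurons rely heavily on this pathway for ion pumping and synaptic transmission. Its nuclear genes are known to be driven by the nuclear respiratory factors NRF1 and GABP, by YY1 and by oestrogen-related receptors, with PGC-1 proteins as co-activators.

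Promoter sequences (RefSeq, build GRCm38.p6, from 250 bases before to 50 bases after the annotated start) were found for 67 of the 82 subunit genes. The NRF1 motif CGCANGCGC was present, on either strand, in 34.3% of these promoters (23 of 67), against 10.6% of 15614 array genes with a promoter in the same table. The GABP motif CCGGAAG was present in 25.4% against 13.6%, the YY1 motif AAGATGGCG in 10.4% against 2.29% and the oestrogen-related receptor motif TCAAGGTCA in 2.99% against 0.346%. The TATA motif TATAAA was present in 11.9% against 13.6%. The end of the GABP motif and the beginning of the YY1 motif share the letters AAG, so that these matches can overlap. The NRF1 motif was found in 9 of 15 complex V promoters, 3 of 5 of complex III, 2 of 3 of complex II, 8 of 31 of complex I and 1 of 13 of complex IV. These are letter matches and not measured binding.

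Stretches of 150 bases are shown for 4 genes whose transcripts were lower in Aldara-treated brains, 1 each from complexes II, V, IV and I, to show which motifs each holds and where. All are on the minus strand, run from 130 bases before the start to 20 bases after it, and are written 5′ to 3′ with motif matches in capitals. Sdha (chr13:74350221-74350370) holds 3 NRF1 matches, Atp5e (chr2:174464082-174464231) and Cox8a (chr19:7217597-7217746) 1 GABP match each on the opposite strand, and Ndufv1 (chr19:4012736-4012885) none of the 5 motifs.
Sdha: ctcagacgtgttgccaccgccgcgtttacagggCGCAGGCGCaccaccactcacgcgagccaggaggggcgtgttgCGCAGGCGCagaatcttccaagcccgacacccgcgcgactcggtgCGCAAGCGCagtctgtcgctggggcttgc
Atp5e: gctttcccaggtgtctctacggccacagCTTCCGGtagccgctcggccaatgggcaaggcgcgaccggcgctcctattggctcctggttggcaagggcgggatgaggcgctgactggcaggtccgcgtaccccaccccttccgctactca
Cox8a: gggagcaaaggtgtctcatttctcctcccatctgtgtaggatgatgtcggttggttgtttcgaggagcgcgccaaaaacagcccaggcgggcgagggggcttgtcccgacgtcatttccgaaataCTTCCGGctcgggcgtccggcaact
Ndufv1: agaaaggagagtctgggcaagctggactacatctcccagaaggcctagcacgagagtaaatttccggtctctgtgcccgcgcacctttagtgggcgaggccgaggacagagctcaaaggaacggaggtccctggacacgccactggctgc
Among the subunits with a promoter, the NRF1 motif was found in 2 of 16 with lower transcripts and in 21 of 51 that did not pass the test. In the same order, the GABP motif was found in 12.5% and 29.4% and the oestrogen-related receptor motif in 0% and 3.92%. The YY1 motif was found in 12.5% and 9.8% and the TATA motif in 18.8% and 9.8%. This is a description of these promoters only.

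In Aldara-treated brains 20 of the 89 genes were lower and 1 was higher than in control brains (limma, adjusted p under 0.05), and 68 did not pass. This is 22.5% lower, against a background of 22.4% of all 19938 genes, and 1.12% higher, against 11.8%. The share of lower genes was therefore that of the array as a whole. Counted among genes at or above the median of mean expression, where 82 of the 89 lie, 18 members were lower (22.0%) against 33.3% of such genes, and 1 was higher against 14.1%. In the brightest 25% of genes, 14 of 64 members were lower (21.9%), against 37.3%. Without overlap between the groups, 16 members were lower and 2 higher (Uqcrb and Atp5pb), against backgrounds of 16.4% and 9.93% of all genes. One of the 16, the complex III core subunit Uqcrc1, did not pass the test.

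The changes were small. The median difference of the 89 genes was -0.05, the same to 2 decimals as the median of all genes (-0.05), and no member differed by more than 1.25-fold, while 1264 genes of the array did. The 95% interval of the difference lay within 1.25-fold for 87 of 89 members (97.8%) and for 88.2% of all genes. The exceptions were Cox8b and Cox6b2. Of the 89, 70 were below 0 (78.7%, against 69.3% of all genes) and 45 below the all-gene median. The calls depended on how arrays were scaled. With arrays centred on a common median, 50 members were lower and 0 higher (43.4% and 9.51% of all genes). With Aldara arrays shifted so that the median probeset did not differ, 8 were lower and 3 higher (12.6% and 15.4% of all genes). The 8 genes lower after that shift were Cox8a, Cox8b, Cox4i1, Cox6b2, Ndufa4, Ndufv1, Ndufb9 and Atp5e, and all had been lower in the deposited values.

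**Figure D1:**
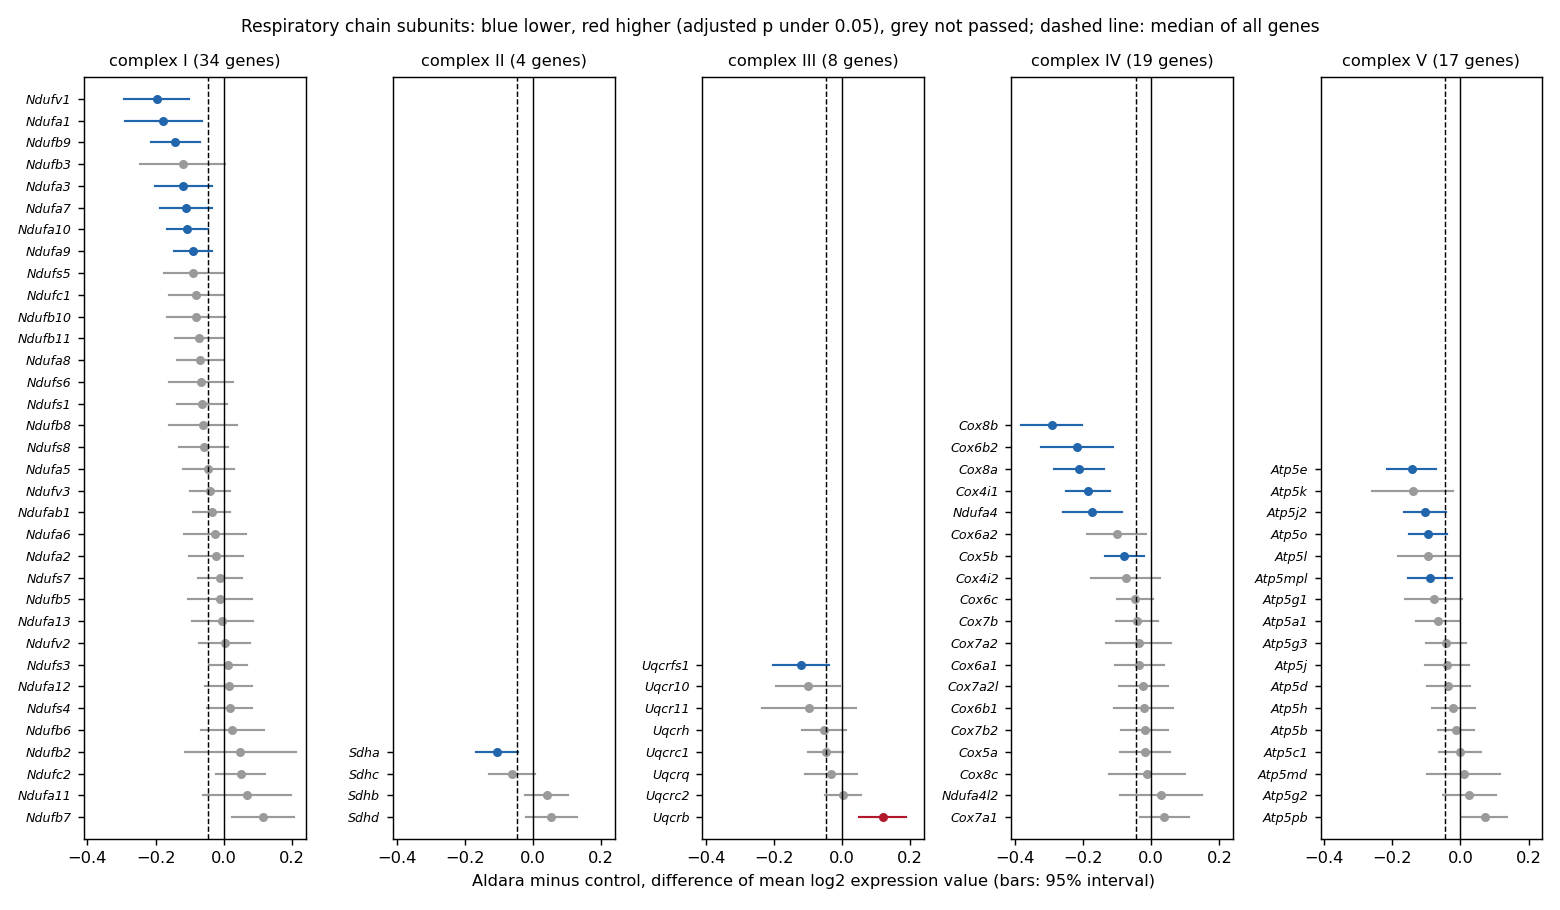
Difference of mean log2 expression value between Aldara-treated and control brains (x axis, with 95% intervals) for the 82 subunit genes, by complex, n = 5 mice per group. Blue genes were lower and the red gene, Uqcrb, higher at an adjusted p under 0.05. Of the 82 genes 64 lie below 0 and 41 below the dashed line, the median of all genes, and the genes furthest to the left are in complexes IV and I.

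In complex IV, cytochrome c oxidase, 6 of 19 genes were lower (31.6%, against 22.4% of all genes) and 0 higher. Among its 13 genes at or above the median of mean expression 4 were lower (30.8%, against 33.3% of such genes). The differences of the 19 genes had a median of -0.04, which was -0.001 with the arrays shifted so that the median probeset did not differ. Cox8a encodes the ubiquitous form of subunit 8. Its values were 12.18, 12.17, 12.23, 12.20 and 12.20 in control brains and 11.94, 12.02, 12.06, 12.01 and 11.90 in Aldara-treated brains. No Aldara-treated mouse reached the lowest control mouse, and the mean was 1.16-fold lower (difference -0.21, SE 0.03, adjusted p = 0.000478). Cox4i1, the ubiquitous form of subunit 4 and one of the larger nuclear-encoded subunits, measured 11.31, 11.25, 11.33, 11.36 and 11.34 in controls and 11.12, 11.17, 11.08, 11.15 and 11.15 after Aldara. The groups again did not overlap, with a difference of -0.19 (SE 0.03, adjusted p = 0.000507). Ndufa4 measured 10.94, 10.91, 10.97, 10.84 and 10.97 in controls and 10.71, 10.77, 10.66, 10.80 and 10.84 after Aldara. Here the lowest control and the highest Aldara-treated mouse were nearly level, and the difference was -0.17 (SE 0.04, adjusted p = 0.00518). Cox5b, the zinc-binding subunit on the matrix side, was lower by less (difference -0.08, adjusted p = 0.0378), and its call was lost with the mean of its 2 probesets (adjusted p = 0.0558) and in 6 of the 10 fits that left out 1 mouse.

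The other lower genes of complex IV are dim on these arrays. Cox8b, the heart and skeletal muscle form of subunit 8, measured 7.20, 6.98, 7.02, 7.02 and 7.11 in controls and 6.78, 6.75, 6.81, 6.79 and 6.75 after Aldara. Its difference of -0.29 (SE 0.04, adjusted p = 0.0002) was the largest of all members. Cox6b2, a form of subunit 6b best known from testis, was lower by 0.22 with groups that did not overlap (6.94 to 7.16 against 6.73 to 6.94, adjusted p = 0.00445). Both lie below the median of mean expression over probesets, where a level near background cannot be told from low expression. Of 8 skeletal and heart muscle markers, 0 passed the test, 6 were below 0 and the median was -0.08. Of these markers 4 were lower with quantile normalisation and 4 with centred arrays (against 28.6% and 43.4% of all genes). Their mean level was 7.25 to 7.36 in control and 7.17 to 7.31 in Aldara-treated brains, and their part in the Cox8b value was not tested.

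Isoforms of the same subunit did not all pass. Against Cox4i1, the hypoxia-responsive form Cox4i2 had a difference of -0.08 (adjusted p = 0.241), but it was lower with quantile normalisation (-0.12, adjusted p = 0.0419). Cox8c, a testis form, differed by -0.01 from control (adjusted p = 0.885), beside the lower Cox8a and Cox8b. Cox6a1 and the muscle form Cox6a2 had differences of -0.04 and -0.10 (adjusted p = 0.446 and 0.0687). Cox6a2 was lower with quantile normalisation, with centred arrays and with only brighter probesets (adjusted p = 0.0218, 0.00648 and 0.0379). Cox7a1, another muscle form, and Cox7a2 had differences of 0.04 and -0.04 (adjusted p = 0.396 and 0.545). Ndufa4l2, the hypoxia-induced relative of Ndufa4, differed by 0.03 (adjusted p = 0.729). Cox4i2, Cox8c and Ndufa4l2 are dim (mean 7.67, 6.83 and 7.11, against a probeset median of 8.15), with the limit given above for Cox8b. Differences between isoforms were not tested. For Cox7a2l, a factor of supercomplex assembly, the 2 probesets disagreed. The brighter one differed by -0.02 (adjusted p = 0.635) and the other by -0.14 (adjusted p = 0.00256), so its transcript is reported as uncertain.

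**Figure D2:**
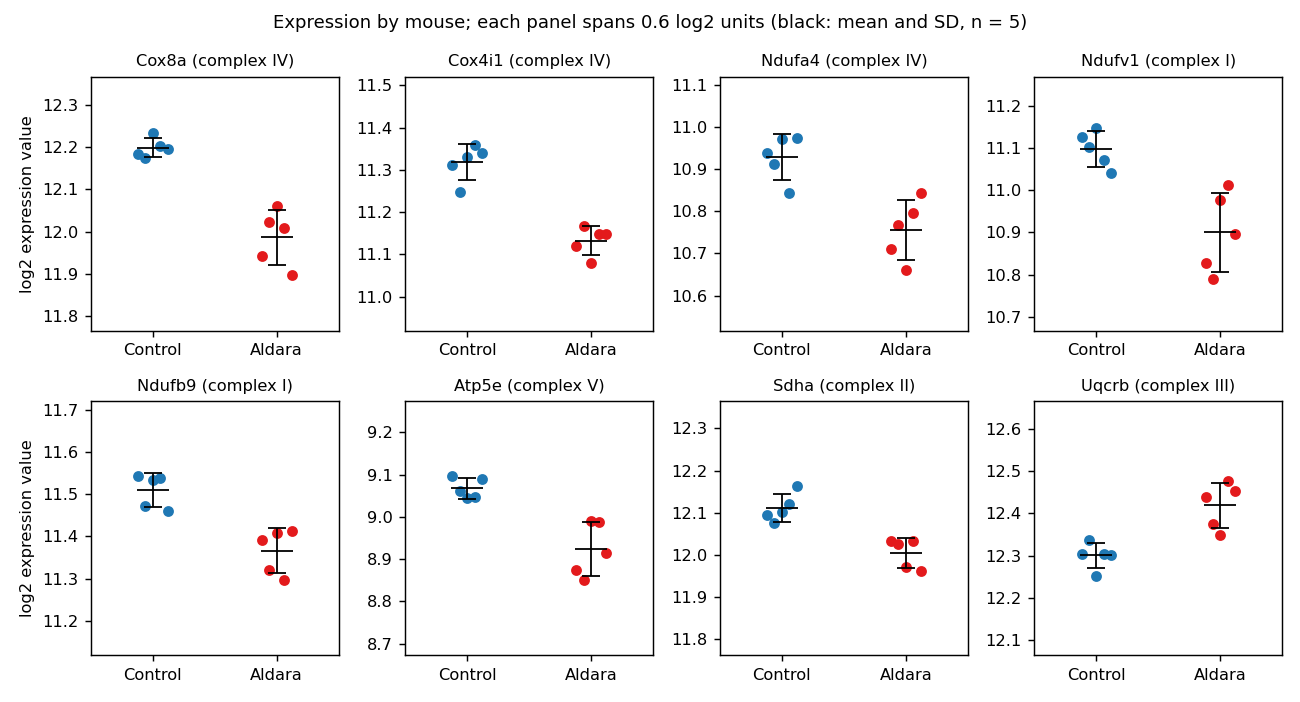
Log2 expression value of 8 subunit genes in each mouse (points), with the mean and SD of each group in black (n = 5 per group). Every panel spans 0.6 log2 units. The Aldara-treated mice lie below the control mice in 7 panels and above them for Uqcrb, and in the Ndufa4 panel the groups nearly touch.

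In complex I, 7 of 34 genes were lower (20.6%, against 22.4% of all genes) and 0 higher, and the median was -0.05. All 34 lie at or above the median of mean expression, where 33.3% of genes were lower. Of the 6 core subunits measured, which carry the catalytic centres, 1 passed. This was Ndufv1, the subunit that binds NADH and flavin mononucleotide. It measured 11.13, 11.10, 11.15, 11.07 and 11.04 in controls and 10.83, 10.79, 10.98, 11.01 and 10.90 after Aldara. The Aldara-treated mice were spread more widely than the controls but did not overlap with them (difference -0.20, SE 0.04, adjusted p = 0.0044). The other core subunits, which carry iron-sulphur clusters or lie along the path to ubiquinone, did not pass. Their differences were -0.06 for Ndufs1, 0.01 for Ndufs3, -0.01 for Ndufs7, -0.06 for Ndufs8 and 0.00 for Ndufv2, with adjusted p between 0.164 and 0.957. With centred arrays Ndufs1 and Ndufs8 were lower (adjusted p = 0.0183 and 0.0173), as were 43.4% of all genes.

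Of the 28 accessory subunits of complex I, 6 were lower. Ndufb9 had the smallest p among them, with values of 11.54, 11.47, 11.53, 11.54 and 11.46 in controls and 11.39, 11.32, 11.41, 11.30 and 11.41 after Aldara. The difference was -0.14 (SE 0.03, adjusted p = 0.00536) and the groups did not overlap. Ndufa10 (-0.11, adjusted p = 0.0101) and Ndufa9 (-0.09, adjusted p = 0.0186), which lies near the ubiquinone site, also did not overlap between groups. Ndufa1, Ndufa3 and Ndufa7 were lower with overlapping groups, with differences of -0.18, -0.12 and -0.11 (adjusted p = 0.0192, 0.0305 and 0.0284). The calls of Ndufa3 and Ndufa7 were kept in only 5 and 6 of the 10 fits that left out 1 mouse. Those of Ndufa1, Ndufa3, Ndufa7, Ndufa9 and Ndufa10 were lost with the median difference set to 0 (adjusted p between 0.0695 and 0.196). Ndufa9 and Ndufa3 also lost theirs with a replicate block (adjusted p = 0.0564 and 0.0771). The highest value among accessory subunits was that of Ndufb7, 0.11 above control (adjusted p = 0.0527). The spread among complex I genes thus ran from -0.20 to 0.11 within the same brains.

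In complex II, 1 of 4 genes was lower (25%, against 22.4% of all genes). All 4 lie at or above the median of mean expression, where 33.3% of genes were lower. Sdha, the flavoprotein that oxidises succinate, measured 12.09, 12.08, 12.10, 12.12 and 12.16 in controls and 12.03, 12.03, 11.97, 12.03 and 11.96 after Aldara. All Aldara-treated mice were below all controls (difference -0.11, SE 0.03, adjusted p = 0.013), and the call was lost with the median difference set to 0 (-0.06, adjusted p = 0.12). Sdhb, the iron-sulphur subunit, differed by 0.04 (adjusted p = 0.306). The membrane anchors Sdhc and Sdhd differed by -0.06 and 0.05 (adjusted p = 0.159 and 0.249), and Sdhc was lower with centred arrays (adjusted p = 0.0202). The median of the 4 was -0.01, and it was 0.03 with the arrays shifted so that the median probeset did not differ.

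Complex III held the member that was higher. Uqcrb, a small subunit near the ubiquinone site, measured 12.31, 12.34, 12.25, 12.31 and 12.30 in controls and 12.44, 12.38, 12.35, 12.48 and 12.45 after Aldara. The lowest Aldara-treated mouse was above the highest control, and the difference was 0.12 (SE 0.03, adjusted p = 0.0123). Its other 2 probesets were also higher (0.12 and 0.10, adjusted p = 0.0294 and 0.0186). With arrays centred on a common median the difference was 0.07 and did not pass (adjusted p = 0.102). Uqcrfs1, the Rieske iron-sulphur protein, was lower with overlapping groups (-0.12, adjusted p = 0.0282). Its call was lost with the median difference set to 0 and when any 1 of 5 mice (Control replicates 1, 3 and 5, Aldara replicates 3 and 4) was left out, which leaves 0 lower genes in the complex. Uqcr10 had a difference of -0.10 (adjusted p = 0.1) and was lower with centred arrays (adjusted p = 0.0124). The median of the 8 genes was -0.05.

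In complex V, the ATP synthase, 4 of 17 genes were lower (23.5%, against 22.4% of all genes) and 0 higher, with a median of -0.04. All 17 lie at or above the median of mean expression, where 33.3% of genes were lower. Atp5e, the epsilon subunit of the central stalk, measured 9.10, 9.06, 9.04, 9.05 and 9.09 in controls and 8.88, 8.85, 8.99, 8.99 and 8.91 after Aldara. The groups did not overlap (difference -0.14, SE 0.03, adjusted p = 0.00577). Atp5o, which joins the peripheral stalk to the catalytic head, differed by -0.09 (adjusted p = 0.0126). Atp5j2, subunit f of the membrane part, and the small membrane protein Atp5mpl differed by -0.10 and -0.09 (adjusted p = 0.0132 and 0.0374). The call of Atp5mpl was kept in only 5 of the 10 fits that left out 1 mouse and was lost with a replicate block (adjusted p = 0.0511), and both were lost with the median difference set to 0, as was that of Atp5o. The catalytic beta subunit Atp5b and its partner Atp5a1 differed by -0.01 and -0.07 (adjusted p = 0.683 and 0.0976). The 3 genes for subunit c, which forms the rotating ring, differed by -0.08 (Atp5g1), 0.03 (Atp5g2) and -0.04 (Atp5g3), and none passed (adjusted p = 0.138, 0.61 and 0.251). With centred arrays Atp5g1 and Atp5g3 were lower (adjusted p = 0.0146 and 0.0145), as were 43.4% of all genes. Atp5pb, of the peripheral stalk, was 0.07 above control without overlap (adjusted p = 0.0937), but its other probeset differed by -0.03.

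Averaged over the genes of a complex, each mouse could be set against the control mean. Complex IV lay between -0.097 and -0.045 in the Aldara-treated mice and between -0.044 and 0.030 in controls, only just without overlap. Complex V lay between -0.075 and -0.020 against -0.017 to 0.013, also without overlap. Complexes I, II and III overlapped between the groups. With Aldara arrays shifted so that the median probeset did not differ, the groups overlapped in all 5 complexes, while with arrays centred on a common median they overlapped in none. With quantile normalisation only complex II overlapped. The 5 complexes were not tested against each other.

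**Figure D3:**
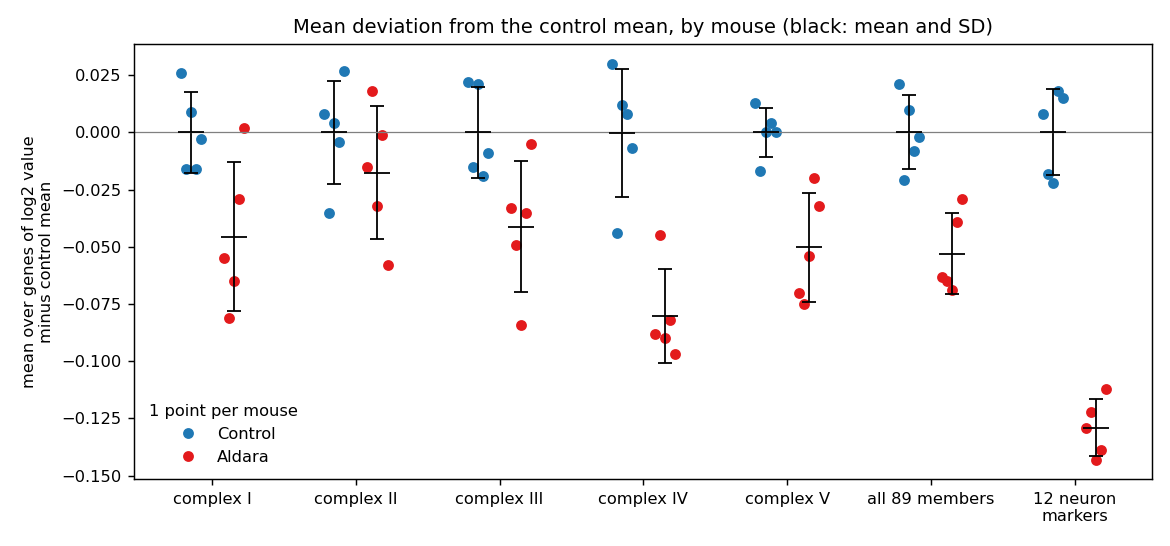
Mean over the genes of each complex of the log2 value minus the control mean (y axis), 1 point per mouse, with the mean and SD of 5 mice in black. Complexes IV and V lie lower in all Aldara-treated mice than in all controls, which is lost when arrays are shifted to a median difference of 0, and the 12 neuron markers lie lower than any complex.

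Markers of cell types were measured in the same brains, where 22.4% of all genes were lower and 11.8% higher. Of 12 neuron markers, 10 were lower and 0 higher, with a median of -0.13, and their mean level was 12.03 to 12.07 in control and 11.91 to 11.94 in Aldara-treated brains. Examples are the nuclear protein Rbfox3 (-0.19), the vesicular glutamate transporter Slc17a7 (-0.21) and the kinase Camk2a (-0.16). The list stayed below all controls in each scaling, with 6 to 11 lower markers (against 12.6% to 43.4% of all genes). Markers listed for leukocytes from blood moved the other way, with 9 of 10 higher and a median of 1.16, led by Lyz2, Ms4a7 and Ptprc. Their mean level was 6.89 to 7.03 in control and 8.49 to 8.69 in Aldara-treated brains. Of the T cell genes in the list, Cd3g was higher (0.51, adjusted p = 0.000312) and Cd3e did not pass (0.11, adjusted p = 0.176). The source of these transcripts was not tested. Ptprc alone does not fix it, since resident microglia also hold its product, CD45, at intermediate levels. Microglial markers did not move as one (5 of 7 higher, median 0.72). Siglech was lower (-0.77, adjusted p = 6.96e-06) and P2ry12 did not pass (0.02, adjusted p = 0.7). Endothelial markers were raised (4 of 5 higher, median 0.61). Of 8 markers of pericytes and smooth muscle 4 were higher (median 0.12). With centred arrays 3 were higher and with quantile normalisation 2 (against 9.51% and 11.8% of all genes). Among astrocyte markers Gfap and Aqp4 were higher and the glutamate transporter Slc1a2 lower (4 of 8 lower, 3 higher). Of 7 oligodendrocyte markers 1 was lower (Mbp) and 2 higher (Cldn11 and Mag), and the red cell marker Alas2 did not pass (adjusted p = 0.579). In whole brain RNA, fewer cells of a type and less RNA per cell cannot be told apart, and the part of these cell type markers in the respiratory chain values was not tested.

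Other mitochondrial and energy genes, taken from lists by function, were compared in the same way. The shares to set beside the counts in these lists are 22.4% lower and 11.8% higher, over all genes. With quantile normalisation they are 28.6% and 11.8%, and with centred arrays 43.4% and 9.51%. With the median difference set to 0 they are 12.6% and 15.4%. Of the electron carriers and subunits outside the name pattern, cytochrome c (Cycs) was higher (0.12, adjusted p = 0.0374), a call lost with quantile normalisation (adjusted p = 0.0517) and with centred arrays (adjusted p = 0.192), and Cyc1 of complex III did not pass (-0.01, adjusted p = 0.877). Of 42 assembly factors 5 were lower and 2 higher (median -0.04), among them the complex IV factor Cox14 (-0.21, adjusted p = 0.00174) and the complex II factor Sdhaf3 (-0.15, adjusted p = 0.00169), both lower. Ndufaf7, a complex I assembly factor within the name pattern, was lower as well (-0.15, adjusted p = 0.0254). Of 18 genes of the tricarboxylic acid cycle and pyruvate dehydrogenase 6 were lower (33.3%) and 0 higher, with a median of -0.07. All 18 lie among the brighter genes, of which 33.3% were lower. The lower genes include pyruvate carboxylase (Pcx, -0.17) and the E1 subunit Pdha1 (-0.11), and the count was 1 with the median difference set to 0, 9 with quantile normalisation and 14 with centred arrays.

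Regulators and supply pathways were mixed. Of 13 regulators of mitochondrial biogenesis 3 were lower and 1 higher (median -0.03, which was 0.01 with the median difference set to 0). The co-activators Ppargc1b and Ppargc1a were lower (-0.19 and -0.10, adjusted p = 0.00173 and 0.0243), as was the receptor Esrrg (-0.11, adjusted p = 0.0449), and the related co-activator Pprc1 was higher (0.12, adjusted p = 0.0304). Of these calls, those of Ppargc1a and Esrrg were lost with the median difference set to 0 (adjusted p = 0.201 and 0.23), and that of Pprc1 with quantile normalisation and with centred arrays (adjusted p = 0.191 and 0.18). Of 77 mitochondrial ribosome genes 2 were lower and 8 higher, among them Mrps6 (0.26) and Mrpl47 (0.23), with a median of -0.02. These counts moved with the scaling, as did those of all genes. With the median difference set to 0, 1 was lower and 11 higher (median 0.03), against 12.6% and 15.4% of all genes. With centred arrays 19 were lower and 3 higher (median -0.06), against 43.4% and 9.51%. With quantile normalisation 5 were lower and 8 higher (median -0.02), against 28.6% and 11.8%. In each scaling the share lower was below that of all genes. Of 24 import genes 3 were lower and 2 higher (Timm8a1 0.14, Tomm40 -0.08), and the call of Timm8a1 was lost with quantile normalisation and with centred arrays and that of Tomm40 with the median difference set to 0. Of 12 genes for carriers, channels and mitochondrial creatine kinase 4 were lower, among them the kinase Ckmt1 (-0.16) and the outer membrane channel Vdac1 (-0.11). The 2 that were higher were the related channels Vdac2 and Vdac3 (0.09 and 0.12, adjusted p = 0.0171 and 0.0241), and 0 were higher with centred arrays. Of 7 antioxidant enzymes 2 were lower, the superoxide dismutase Sod2 (-0.10) and the thioredoxin Txn2 (-0.08). The calls of Pdha1, Vdac1, Sod2 and Txn2 were lost with the median difference set to 0 (adjusted p between 0.0861 and 0.384).

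Glycolytic genes also split. Of 14, 4 were lower and 1 higher, with a median of -0.05. Muscle-type phosphofructokinase Pfkm was lower (-0.21, adjusted p = 0.000176), while hexokinase 2 (Hk2) was higher, with values between 7.16 and 7.46 in controls and between 7.78 and 8.08 after Aldara (difference 0.66, adjusted p = 8.8e-06). Of 10 genes listed for an inflammatory switch of metabolism 4 were higher and 0 lower (median 0.09). With quantile normalisation 4 were higher and 1 lower, and with centred arrays 3 and 1. The 6 that did not pass include Nos2 (-0.03), Acod1 (0.11) and Arg1 (0.05), with adjusted p of 0.632, 0.227 and 0.414. The higher genes were led by Pfkfb3, which makes the activator of phosphofructokinase (0.47, adjusted p = 2.94e-06), and by the glucose transporter Slc2a1 (0.48, adjusted p = 6.24e-06). Both exceeded every difference among the respiratory chain genes.

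**Figure D4:**
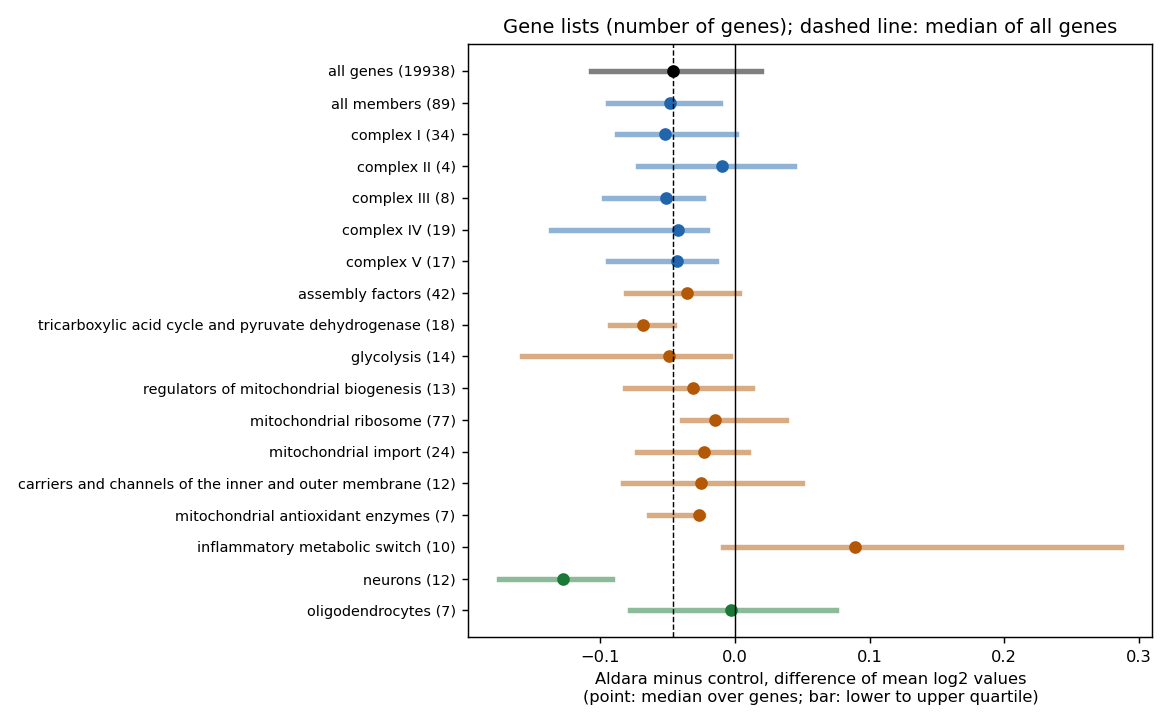
Difference between Aldara-treated and control brains in mean log2 value for gene lists (number of genes in brackets), as the median over genes (point) with lower to upper quartile (bar). The medians of the 5 complexes lie between -0.05 and -0.01, close to the all-gene median (dashed), which is the case for most mitochondrial lists. The inflammatory switch list lies to the right and the neuron markers to the left.

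**Figure D5:**
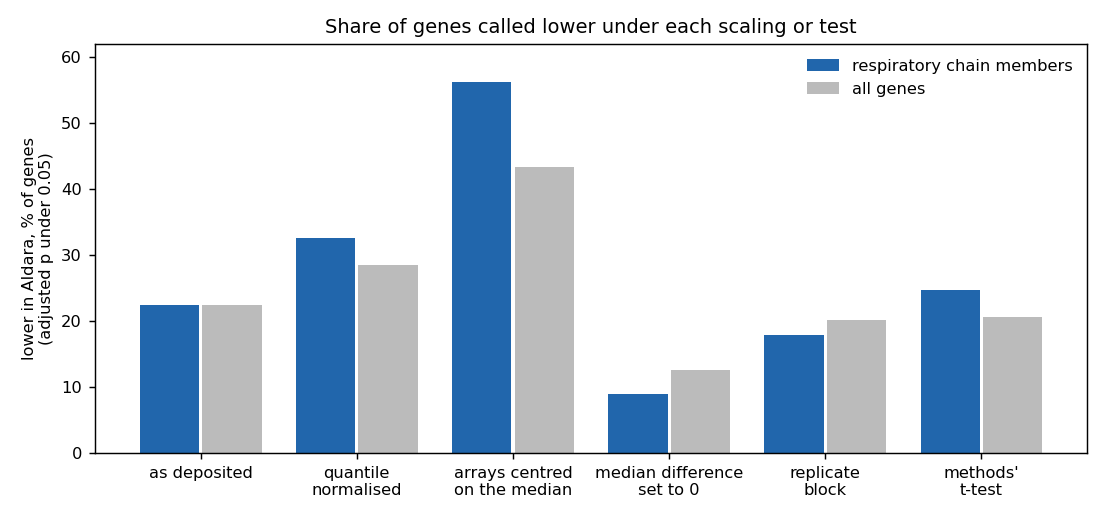
Share of genes lower in Aldara-treated brains (y axis, % with an adjusted p under 0.05) for respiratory chain members (blue) and all genes (grey) under 6 scalings or tests. Members reach 22.5% as deposited, 56.2% with arrays centred on the median and 8.99% with the median difference set to 0, and the share of all genes moves with them (22.4%, 43.4% and 12.6%).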

How the data were processed

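RNA of 10 perfused whole brains was hybridised to Affymetrix Mouse Gene 1.0 ST arrays, 1 per mouse, and the labels call the mice biological replicates. The deposited values are log2 expression values that were produced by the authors with GeneSpring GX by RMA 16 (the software's version is not given in the sources used here). RMA corrects background, normalises across arrays and summarises the probes of a probeset. Symbols are those of GEO's platform table and some may be outdated. There were 28856 probesets, 21789 with 1 symbol, 1621 with several, which named no gene, and 5446 with none. Each gene was represented by its probeset with the highest mean over the 10 arrays. Genes with near-identical copies or pseudogenes remain uncertain.

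All 23410 probesets with a symbol were fitted without covariates in R 4.3.3 using lmFit and eBayes of limma 3.58.1, and p-values were adjusted over all of them by the Benjamini-Hochberg method, with a threshold of 0.05. The test was also run on simulated arrays with independent genes and no shift between arrays. That run cannot show how the calls depend on scaling. The members, lists and promoter motifs were chosen with earlier results of these data known. Named members are the 3 with the smallest p in each complex, members that were higher, core subunits of complex I, complex II and isoform groups, and up to 2 genes of each other list (4 of the regulators, 3 of each marker list). The other genes that passed in a complex were named after their values were seen. So were a few that are singled out: Atp5a1, Atp5b, Atp5pb, Uqcrc1, Ndufb7, Ndufaf7, Vdac2, Vdac3, Nos2, Acod1, Arg1, Cd3e, Cd3g, Siglech and P2ry12. The 0 columns of other series and the measurements by other methods were not used here. With 5 arrays per group, their number limits the precision.

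The alternatives were centring arrays on a common median, quantile normalisation, a median difference of 0 (each Aldara array shifted by the median difference of all probesets), all probesets, only those with 1 symbol, only brighter ones, a robust prior with a trend on intensity, array weights, the methods' t-test, a replicate block, the mean of a gene's probesets, shared probesets, Ndufa4 and Ndufa4l2 counted with complex I, and leaving out each array in turn. Over the tested probesets, array medians were 8.10 to 8.14 in control and 8.16 to 8.19 in Aldara-treated brains. Correlations between arrays were 0.9977 to 0.9985 within control, 0.9952 to 0.9987 within Aldara and 0.9805 to 0.9883 between groups. Figures and promoter matches were made with Python 3.11.15.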

Additional observations from a re-analysis of the deposited data

Results flagged for a closer look

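The following are arrays that lie far from the other 4 of their group, by Dixon's 95% critical value (0.71 for 5 arrays), in 2 of 92 groups examined. Chance gives about 1 in 20 such groups. For Ndufs7, a core subunit of complex I that did not pass the test, Control replicate 1 had a value of 12.808 and the other controls lay between 12.738 and 12.748. For complex IV, the mean deviation of Aldara replicate 2 was -0.045 and that of the other Aldara-treated mice between -0.097 and -0.082. This is the mouse nearest to the controls in that complex.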

How the results depend on the processing

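Of the 21 calls among members, 8 held in every alternative in which they were measured: Ndufv1, Ndufb9, Cox8b, Cox8a, Cox4i1, Cox6b2, Ndufa4 and Atp5e, all lower (Cox8b and Cox6b2 are not among the brighter probesets). Uqcrb was lost only with centred arrays. The cause of the changes below was not tested. With arrays centred on a common median, 50 members were lower and 0 higher (against 43.4% and 9.51% of all genes). Lower genes then numbered 19 in complex I, 2 in II, 4 in III and 11 in V, and the medians of complexes I to V were -0.100, -0.058, -0.099, -0.090 and -0.091. Of the named members, Sdhc, Uqcr10, Ndufs1, Ndufs8, Cox6a2, Atp5g1 and Atp5g3 gained a call as lower (adjusted p between 0.00648 and 0.0202). Others that did not pass turned negative: Ndufs3 -0.0355, Ndufv2 -0.0453, Sdhb -0.0081, Cox7a1 -0.0097, Ndufa4l2 -0.0196 and Atp5g2 -0.0217. With the median difference set to 0, 8 members were lower and 3 higher (against 12.6% and 15.4% of all genes). Lower genes then numbered 2 in complex I, 0 in II, 0 in III and 1 in V, and the medians were -0.011, 0.031, -0.010, -0.001 and -0.002. Ndufs7 became 0.0300, Cox6a1 0.0061, Cox7a2 0.0040, Cox7a2l 0.0183 and Cox8c 0.0296. Quantile normalisation gave 29 lower members (32.6%, against 28.6% of all genes) and 2 higher (against 11.8%). It also gave medians of -0.072 in complex IV and -0.061 in V, -0.0110 for Ndufv2 and -0.0052 for Cox7a1. Members that were higher numbered 2 with only probesets of 1 symbol, 2 with only brighter ones and 3 with a trend and robust prior. In the same order, 11.9%, 15.8% and 12% of all genes in the fit were higher. The methods' t-test gave 22 lower and 1 higher member after Benjamini-Hochberg (against 20.6% and 11.2% of all genes). Unadjusted, the member counts were 28 and 3. This test gave 2 lower genes in complex III. With array weights Ndufv2 was -0.0046.

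With the replicate number as a block, 16 members were lower and 1 higher (against 20.2% and 11.1% of all genes). Of the 20 lower calls, 15 were kept. The labels do not say whether the numbers pair the mice. Deviations of same-numbered arrays correlated at 0.177, 0.249, 0.038, -0.110 and 0.073, and 4 of 10 arrays correlated best with their own number. Whether same-numbered arrays were processed together was not tested. Over all genes, 18.8% (without Control replicate 1) to 21.7% were lower and 10.7% to 11.8% higher when 1 array at a time was left out. Leaving out 1 array gave 14 (without Control replicate 1) to 21 lower members and 1 to 2 higher. It gave 0 to 1 lower genes in complex III and a complex V median of -0.060 to -0.036. Calls lost in this way were those of Ndufa7 (without Control replicates 1, 3 or 4 or Aldara replicate 4), Ndufa3 (Control 1 or 5, Aldara 1, 2 or 5), Uqcrfs1 (Control 1, 3 or 5, Aldara 3 or 4), Cox5b (Control 1, 3 or 4, Aldara 1, 2 or 3), Atp5mpl (Control 1, 4 or 5, Aldara 1 or 3) and Ndufaf7 (Control 1 or 3, Aldara 1 or 2). Over the same omissions, values ran from -0.0227 to 0.0048 for Ndufs7, -0.0163 to 0.0221 for Ndufv2, -0.0445 to 0.0198 for Cox8c and -0.0082 to 0.0755 for Ndufa4l2. Among named members, calls gained by an omission were those of Atp5g1 (Control 5) and Cox6a2 (Control 2 or Aldara 3). The number of arrays limits what can be called, and members with dim probesets, such as Cox8b, have values near background.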
